A study of Mus musculus with 48 samples.

Results

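The transcriptional response of brain endothelial cells to ischemic stroke was read from 12 RNA-sequencing libraries of male C57BL/6 mice, 6 from the ipsilateral (ischemic) and 6 from the contralateral hemisphere, of 48 libraries in the series. The mice underwent transient middle cerebral artery occlusion (tMCAO) for 1 h, followed by 23 h of reperfusion, and the contralateral hemispheres of the same wild-type animals served as control, so that no sham-operated mouse enters the comparison. Each library came from a pool of 3 to 4 mice, and a replicate number stands for the same pool in both hemispheres. The study kept only animals whose neurological score marked a moderate to severe stroke. Endothelial cells were sorted as live cells that were negative for CD45, the astrocyte antigen ACSA2, NG2 and PDGFRβ and positive for VE-cadherin. Of the 24973 genes in the deposited table, the 13242 that averaged 10 or more normalized counts in these 12 libraries were compared.

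Endothelial cells of brain capillaries form the blood–brain barrier: tight junctions seal the space between them, transporters carry nutrients and expel drugs, and few vesicles cross them. Wnt signals from surrounding tissue maintain this program. After ischemia these cells meet hypoxia, reperfusion and blood-derived leukocytes, and they can remodel their matrix, release angiogenic ligands and lose barrier functions.

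The 4 endothelial markers *Cldn5*, *Pecam1*, *Cdh5* and *Ptprb* were above 10 normalized counts in 12 of 12 libraries, and their sum ranged from 63144 to 92219 in contralateral and from 50747 to 80091 in ipsilateral libraries, against 792 to 3027 in contralateral pericytes. None of the 4 was called different between hemispheres. *Ptprb*, a phosphatase that restrains Tie2, was at 13417 to 19934 (median 15880.5) contralaterally and at 5422 to 16599 (median 10525) ipsilaterally, a log2 difference of -0.73 ± 0.26 (SE, n = 6 per hemisphere, limma adjusted p = 0.246). The libraries held about 8600000 to 16600000 reads on genes, as estimated from the spacing of their low values, so that 3 reads, taken as the floor, were worth 2.0 to 3.8 normalized counts (counting error only). Contralateral replicates 2 and 4 and ipsilateral replicate 1 stood apart, with a median Pearson's r across genes of 0.705, 0.807 and 0.775 to the other 9 libraries, whose medians among themselves were 0.828 to 0.897. The single values of contralateral replicate 4 (0.75 to 0.825) and ipsilateral replicate 1 (0.731 to 0.796) overlapped those among the other 9, which began at 0.776. Replicates 5 and 6 of both hemispheres correlated at 0.919 to 0.958.

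Markers of other cells were detected despite the gate, and the amount of microglial RNA differed mainly between replicates. The summed level of 15 microglial markers was 14148 to 68741 in contralateral and 15555 to 105507 in ipsilateral libraries of replicates 1 to 4, and 1512 to 1697 and 1415 to 1492 in replicates 5 and 6, against a median of 869732.5 in contralateral microglia. Neutrophil markers (13 genes) summed to 55 to 1741 contralaterally and 129 to 10891 ipsilaterally, higher on the ipsilateral side in 6 of 6 pairs, with *Camp* and *Mpo* at 0 in all 12 libraries. The same 13 genes summed to 6486 to 8094 in contralateral microglia. The 14 pericyte and smooth muscle markers summed to 1295 to 9893 contralaterally and 529 to 3937 ipsilaterally, lower in 6 of 6 pairs, and the 7 erythrocyte markers peaked at 78813 in contralateral replicate 2. The 14 monocyte and macrophage markers summed to 28425 to 34751 and 26949 to 55919 (median log2 fold change of the single markers 2.32, 11 of 14 above 0, none called), the 11 astrocyte markers to 2747 to 5863 and 5354 to 12965, and the 11 oligodendrocyte lineage markers to 1380 to 12429 and 1670 to 22828, in contralateral and ipsilateral libraries. The monocyte and macrophage sum stayed at 34751 and 28425 in contralateral replicates 5 and 6, where microglial markers were low. Only 3 of its 14 markers were above 10 in all 6 contralateral libraries, and the cells it came from were not tested. Lymphocyte, fibroblast, platelet and neuronal markers summed to at most 2793 in any library, platelet markers being higher and neuronal markers lower on the ipsilateral side in 6 of 6 pairs. In bulk libraries, more cells of another type and more RNA of theirs per cell cannot be told apart.

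**Figure D1:**
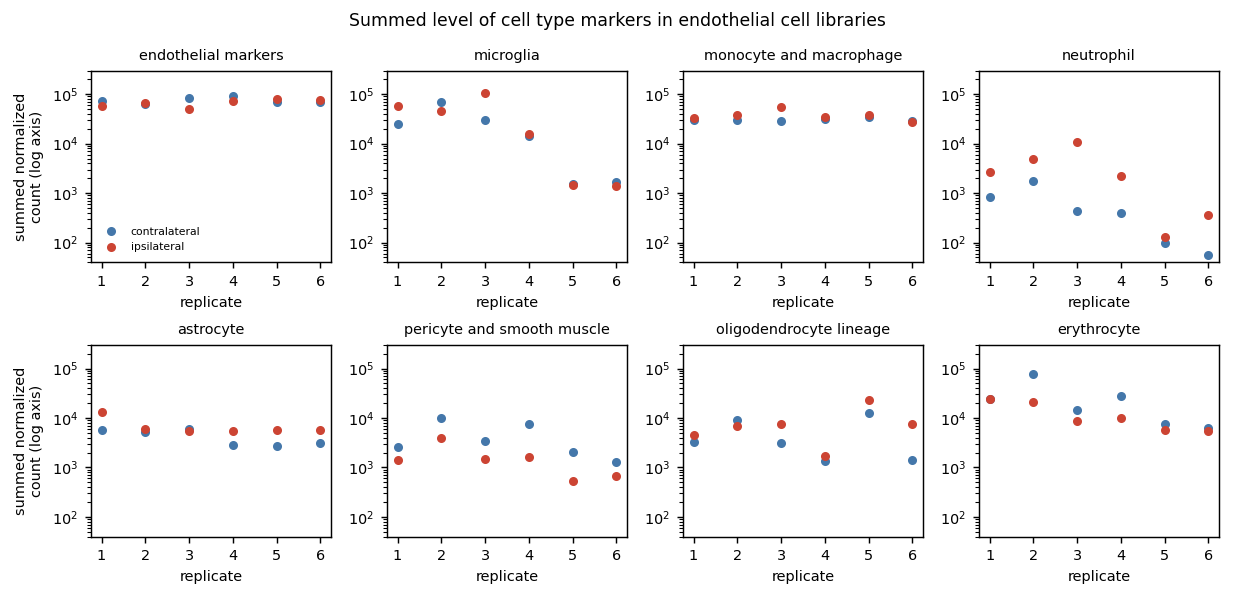
Summed normalized counts of marker lists (log axis) in the 6 contralateral (blue) and 6 ipsilateral (red) endothelial cell libraries, by replicate number, each point 1 library. Endothelial markers stay between 50747 and 92219, while microglial markers are at 14148 or more in replicates 1 to 4 and at 1697 or less in replicates 5 and 6.

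More genes passed the thresholds upwards than downwards in the ipsilateral hemisphere, while over all genes tested both directions were about even. Of the 13242 genes, 48 (0.362%) rose and 17 (0.128%) fell, together 0.491%. An unadjusted p under 0.05 was reached upwards by 787 genes (5.94%) and downwards by 794 (6.00%). A gene was called regulated when the Benjamini-Hochberg adjusted p of limma on log2(normalized count + 1) was at most 0.05, the fold change at least 1.5 in either direction, and the value above 10 in all 6 libraries of a hemisphere. Called log2 fold changes ran from 0.85 to 7.27 among rising genes and from -2.25 to -0.95 among falling genes, beside a median of -0.03 over all genes tested. Of the 48 rising genes, 47 were higher in 6 of 6 pairs (4.77% of all genes tested were) and 41 did not overlap between hemispheres (1.13% of all genes). All 17 falling genes were lower in 6 of 6 pairs (5.19% of all genes) and 16 did not overlap (0.929%). These shares come from the values that made the calls and are given as a description.

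With the replicate number as a block, which compares hemispheres within pools, 50 genes (0.378%) were called higher and 23 (0.174%) lower, and 46 of the 65 genes remained, 33 rising and 13 falling. These block calls too depended on the pools, with 2 to 296 genes called when a replicate was left out. The 19 genes not called with the block had adjusted p of 0.0517 to 0.0851 there. They were *Map1b*, *Tcp1*, *Stc1*, *Cd200*, *Pvr*, *Yars*, *Nus1*, *Hmga1*, *Slc35g2*, *Pisd*, *Tpm3*, *Nek6*, *Pgk1*, *Ddx39* and *Mctp2* among rising and *Cavin2*, *Prss23*, *Tnrc6c* and *Smpdl3a* among falling genes. The count of calls depended on which pools were included: it was 38, 84, 16, 13, 20 and 10 without replicate 1, 2, 3, 4, 5 or 6. Of the 65 genes, 12 were called in none of these 6 fits, 20 in 1, 16 in 2, 4 in 3, 3 in 4, 1 in 5 and 9 in 6. Without the 3 libraries that stood apart, 285 of 13027 genes (2.19%) were called higher and 231 (1.77%) lower, among them all 65. Leaving out only contralateral replicate 2 and ipsilateral replicate 1 gave 395 calls, again with all 65.

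**Figure D2:**
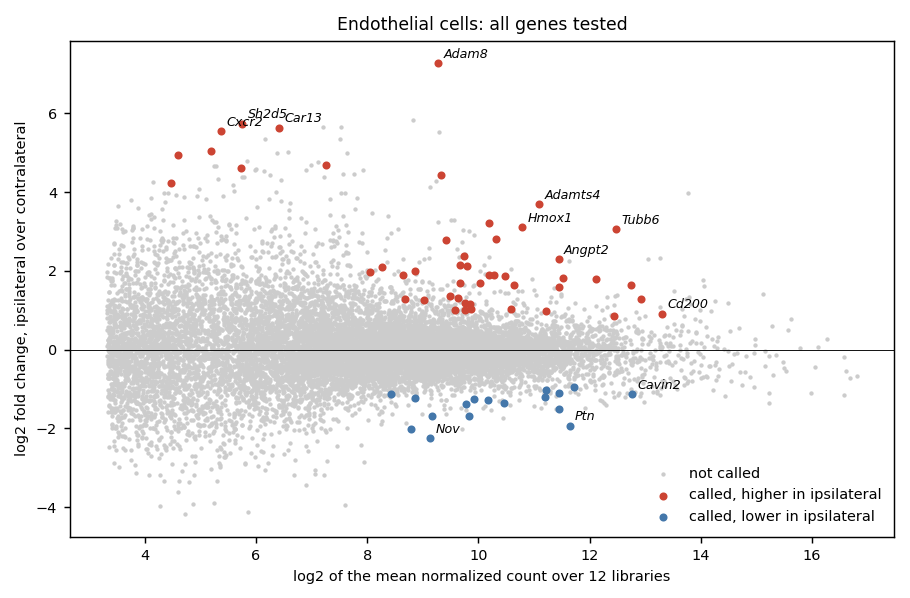
Log2 fold change (ipsilateral over contralateral) of the 13242 genes tested in endothelial cells against the log2 of their mean normalized count over 12 libraries, with the 48 called higher in red, the 17 called lower in blue and the rest in grey. The highest log2 fold change is that of Adam8 (7.27), and the lowest called one that of Nov (-2.25).

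A core of 9 genes was called without the block, with it, and whichever replicate was left out of the fit without the block: *Tubb6*, *Pde4b*, *Adamts9*, *Bcr*, *Srxn1*, *Hmox1*, *Sh2d5* and *Car13* rose and *Nov* fell. All 9 were changed in the same direction in 6 of 6 pairs without overlap between hemispheres. Of all genes tested, 4.77% were higher and 5.19% lower in 6 of 6 pairs, and 1.13% and 0.929% did not overlap. The 9 were selected on these same values, so their agreement is a description.

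*Tubb6* (chr18:67390717-67402748 in GRCm38, the build of all coordinates below), a beta-tubulin isotype that is scarce in resting tissue, was at 725 to 1803 normalized counts (median 1292) contralaterally and at 7732 to 14773 (median 9720) ipsilaterally. The lowest ipsilateral library lay more than 4 times above the highest contralateral one, and the log2 fold change was 3.05 ± 0.26 (SE, n = 6, limma adjusted p = 0.000102). The difference was similar in the microglia-poor replicates 5 and 6 (3.39) and in replicates 1 to 4 (2.88). Among 14 tubulin genes and tubulin folding factors tested, *Tubb6* was the only one called (0.362% of all genes were called higher), and 6 reached an unadjusted p under 0.05 upwards and none downwards, beside 5.94% and 6.00% of all genes. The list's median was 0.49, and *Tuba1c*, an alpha-tubulin, reached a log2 difference of 1.34 ± 0.35 (adjusted p = 0.116).

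*Pde4b* (chr4:102087543-102607259), a phosphodiesterase that degrades cyclic AMP, a messenger that tightens endothelial junctions, was at 438 to 846 (median 571) contralaterally and at 1697 to 2667 (median 2145.5) ipsilaterally, a log2 fold change of 1.86 ± 0.20 (adjusted p = 0.00143). *Bcr* (chr10:75060592-75184921), a regulator of small GTPases, was at 316 to 643 (median 498.5) and at 1105 to 1795 (median 1674), a log2 fold change of 1.69 ± 0.21 (adjusted p = 0.00304). Neither overlapped between hemispheres, and in replicates 5 and 6, where microglial markers were low, the log2 differences were 1.92 for *Pde4b* and 2.21 for *Bcr*.

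*Sh2d5* (chr4:138250403-138261332), an SH2 domain adaptor, was at 0 in contralateral replicates 1 to 4 and at 6 and 3 in replicates 5 and 6, and at 31 to 163 (median 122.5) ipsilaterally. *Car13* (chr3:14641727-14663002), a cytosolic carbonic anhydrase, was at 0 to 8 (median 2) and at 76 to 452 (median 111). Both were thus near the floor in the contralateral hemisphere, and the differences had a limma adjusted p of 0.00429 and 0.00814. They met the rule of more than 10 in all 6 libraries only through the ipsilateral hemisphere. Values above the floor there were thus a condition of the call. The size of their log2 fold change depended on the pseudocount: 5.74 ± 0.77 for *Sh2d5* with 1, 8.03 with 0.1 and 3.20 with 10, and 5.64 ± 0.82, 7.39 and 3.50 for *Car13*.

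*Nov* (chr15:54745702-54754039), also known as *Ccn3* and encoding a secreted matricellular protein, was at 650 to 1366 (median 810.5) contralaterally and at 122 to 321 (median 174.5) ipsilaterally. Its log2 fold change of -2.25 ± 0.28 (adjusted p = 0.00304) was the lowest of the called genes.

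**Figure D3:**
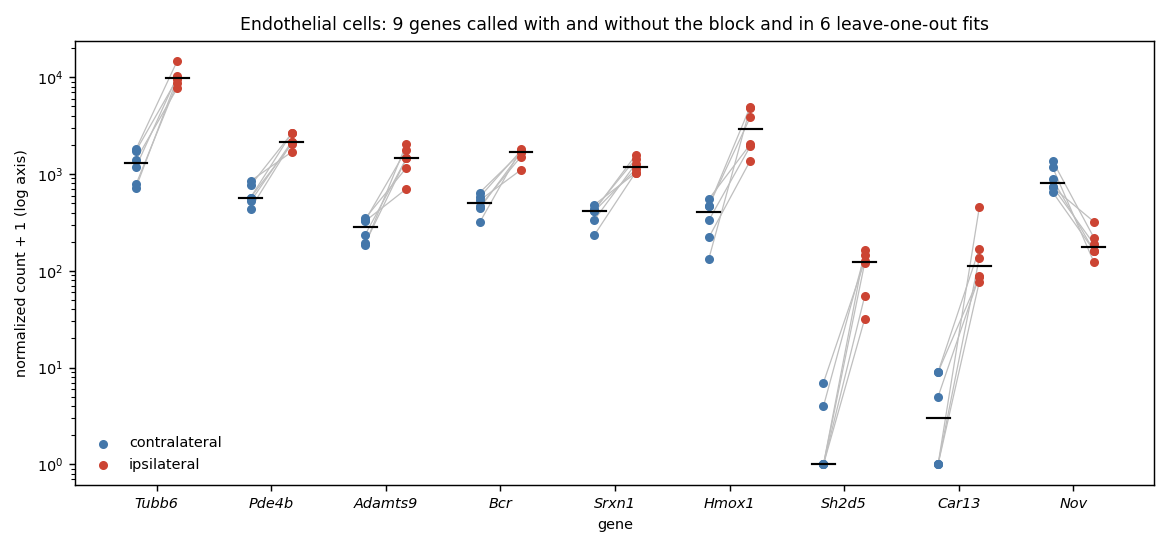
Normalized count + 1 (log axis) of the 9 genes called without the block, with it and whichever replicate was left out of the fit without it, in contralateral (blue) and ipsilateral (red) endothelial cells. Each point is 1 library, grey lines join libraries of the same replicate number and black bars are medians. Tubb6 rises from a median of 1292 to 9720 and Nov falls from 810.5 to 174.5, and no gene overlaps between hemispheres.

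Genes of the oxidant response stood in this core. Nrf2 is a transcription factor that drives antioxidant and heme-handling genes under oxidant stress. *Hmox1* (chr8:75093621-75100589), the enzyme that breaks down heme, was at 133 to 552 (median 401) contralaterally and at 1369 to 4966 (median 2934.5) ipsilaterally, a log2 fold change of 3.10 ± 0.41 (adjusted p = 0.00341). *Srxn1* (chr2:152105524-152111376), sulfiredoxin, which reactivates oxidized peroxiredoxins, was at 233 to 480 (median 415.5) and at 1025 to 1567 (median 1193.5), a log2 fold change of 1.70 ± 0.22 (adjusted p = 0.00341). Of 26 Nrf2 and heme genes tested, these 2 rose and none fell, beside 0.362% and 0.128% of all genes. The cystine carrier *Slc7a11* was called only with the block, from 0 to 136 (median 2.5) to 33 to 543 (median 374.5, adjusted p = 0.0737 without and 0.0371 with the block). An unadjusted p under 0.05 was reached upwards by 12 of the 26 and downwards by 1, beside 5.94% and 6.00% of all genes tested, and the median was 0.39. The quinone reductase *Nqo1* (1.90 ± 0.42, adjusted p = 0.0723) and *Osgin1* (1.73 ± 0.36, adjusted p = 0.0507) were not called.

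Promoter windows are shown for 3 rising genes whose roles are tied to oxidant, AP-1 and hypoxia programs, as RefSeq lists them for GRCm38.p6 (250 bases before to 50 after the start, 5′ to 3′ on the strand of the gene, all 3 on the plus strand). Of the 65 regulated genes, 46 had a window. Capitals mark matches on either strand to TGANTCA, the AP-1 site, and to TGACNNNGC, the core of the antioxidant response element, in *Srxn1* (chr2:152105274-152105573), to TGANTCA in *Plaur* (chr7:24462233-24462532), and to ACGTG, the core of the hypoxia response element, in *Pgk1* (chrX:106186850-106187149).
Srxn1: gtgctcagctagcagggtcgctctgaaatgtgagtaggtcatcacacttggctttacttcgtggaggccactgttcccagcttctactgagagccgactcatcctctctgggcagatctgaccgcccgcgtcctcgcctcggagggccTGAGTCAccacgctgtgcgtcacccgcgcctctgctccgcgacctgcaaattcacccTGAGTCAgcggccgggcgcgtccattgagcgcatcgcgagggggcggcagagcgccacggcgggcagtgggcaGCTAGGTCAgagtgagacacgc
Plaur: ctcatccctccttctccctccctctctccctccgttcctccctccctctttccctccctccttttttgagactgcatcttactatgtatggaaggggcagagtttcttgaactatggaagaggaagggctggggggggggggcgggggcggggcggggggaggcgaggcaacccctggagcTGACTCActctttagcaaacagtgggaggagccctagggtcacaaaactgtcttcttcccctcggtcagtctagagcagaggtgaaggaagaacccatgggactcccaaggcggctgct
Pgk1: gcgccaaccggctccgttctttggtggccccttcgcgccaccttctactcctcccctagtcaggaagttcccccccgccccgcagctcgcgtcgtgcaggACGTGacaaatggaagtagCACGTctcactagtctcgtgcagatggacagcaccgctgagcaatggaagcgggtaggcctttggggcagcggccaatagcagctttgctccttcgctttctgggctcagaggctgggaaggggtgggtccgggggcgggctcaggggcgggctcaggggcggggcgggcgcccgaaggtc
TGANTCA stood in 4 of the 34 windows of rising genes (*Srxn1*, *Plaur*, *Upp1* and *AA467197*), 11.8%, in 0 of the 12 windows of falling genes and in 4.83% of the 9821 windows of genes tested. TGACNNNGC stood in 5 of 34 (14.7%, with *Pde4b*, *Il4ra*, *Hmga1* and *Tcp1* beside *Srxn1*), in 0 of 12 and in 14.9% of all, and ACGTG in 7 of 34 (20.6%), 3 of 12 and 25.7% of all. The AP-1 matches of *Srxn1* start 102 and 45 bases before the start and that of *Plaur* 69 bases before it. A match is a string of letters in this window and not a measured binding site.

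Some proteases that act on the vascular matrix rose, as did the receptor that localizes plasmin formation. Of 28 extracellular proteases and inhibitors tested, 5 rose (*Adamts9*, *Adamts4*, *Mmp14*, *Plaur* and *Adam8*) and none fell, beside 0.362% and 0.128% of all genes. The list had a median log2 fold change of 1.05, and 13 members reached an unadjusted p under 0.05 upwards and 2 downwards, beside 5.94% and 6.00% of all genes. *Adamts9* (chr6:92772699-92943492), a secreted metalloprotease that cleaves proteoglycans, was at 186 to 347 (median 280) contralaterally and at 703 to 2041 (median 1454.5) ipsilaterally, a log2 fold change of 2.38 ± 0.28 (adjusted p = 0.00255). *Adamts4*, a related aggrecanase, was at 50 to 569 (median 274.5) and at 510 to 7839 (median 3380.5). It overlapped between hemispheres because ipsilateral replicate 1 was at 510, yet it was higher in 6 of 6 pairs, and its adjusted p was 0.0247 without and 0.00323 with the block (3.69 ± 0.67 on the log2 scale).

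*Mmp14* (chr14:54431612-54445364), a membrane-bound collagenase that activates pro-MMP-2, was at 81 to 232 (median 95) contralaterally and at 320 to 1003 (median 404) ipsilaterally, a log2 fold change of 2.10 ± 0.36 (adjusted p = 0.0187). *Plaur* (chr7:24462484-24475967), the urokinase receptor, was at 843 to 3794 (median 1954) and at 5050 to 8584 (median 6566.5), a log2 fold change of 1.79 ± 0.30 (adjusted p = 0.0187). The inhibitor *Timp1* was called only with the block: it was at 34 to 612 (median 172) and at 216 to 1491 (median 972), with an adjusted p of 0.138 without and 0.0343 with it. *Adam8*, a metalloprotease of leukocytes, was at 0 to 31 contralaterally, and at 475 to 4815 in ipsilateral replicates 1 to 4 but at 18 and 64 in replicates 5 and 6 (adjusted p = 0.0211). Neutrophil markers were likewise higher in ipsilateral replicates 1 to 4 (2199 to 10891) than in replicates 5 and 6 (129 and 361). Microglial markers were too (15555 to 105507 against 1492 and 1415). The part of these cells in the rise of *Adam8* was not tested.

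Matrix genes themselves were not called without the block. Of 32 basement membrane and matrix genes tested, none was called, with a median of 0.47, and 8 reached an unadjusted p under 0.05 upwards and 3 downwards, beside 5.94% and 6.00% of all genes. With the block, *Nid1*, a linker of the basement membrane, was called, at 385 to 1205 (median 759) contralaterally and 1006 to 3476 (median 2000) ipsilaterally (adjusted p = 0.0371, 0.093 without). *Spp1* and *Cd44*, a ligand and receptor also known from phagocytes, were called with the block too (adjusted p = 0.0369 and 0.0468, against 0.27 and 0.093 without). With it, 0.378% of all genes were called higher. *Spp1* was at 351 to 3309 contralaterally and 12832 to 85525 ipsilaterally in replicates 1 to 4, where microglial markers were high, and at 107 and 68 against 312 and 276 in replicates 5 and 6. It was thus higher in 6 of 6 pairs, and the part of microglial RNA was not tested. The collagen gene *Col4a2* was at 5717 to 11181 (median 9181.5) and at 8677 to 31160 (median 18949.5), a log2 difference of 1.15 ± 0.31 (adjusted p = 0.128).

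Among angiogenic ligands, *Angpt2* and *Apln* rose. *Angpt2* (chr8:18690263-18741562), which endothelial cells store and release to antagonize Tie2, was at 418 to 1809 (median 918.5) contralaterally and at 2877 to 7015 (median 3976) ipsilaterally, a log2 fold change of 2.30 ± 0.33 (adjusted p = 0.00814). It missed the core only because it was not called without replicate 4. *Apln* (chrX:48025146-48034853), the apelin ligand of endothelial tip cells, was at 43 to 580 (median 231) and at 430 to 3618 (median 2129), a log2 fold change of 3.22 ± 0.64 (adjusted p = 0.0398). These were the 2 called of 40 angiogenesis and tip cell genes tested, whose median was 0.12, and 9 members reached an unadjusted p under 0.05 upwards and 5 downwards, beside 5.94% and 6.00% of all genes, of which 0.362% were called higher. Among the latter were *Angpt1*, the activating ligand of Tie2, at 0 to 133 (median 37) and 0 to 18 (median 4, -2.86 ± 1.25, adjusted p = 0.379), beside the lower pericyte and smooth muscle markers, whose part was not tested, and *Tek*, which encodes Tie2, at 3634 to 12402 (median 10432) and 2508 to 8152 (median 5808.5, -0.73 ± 0.33, adjusted p = 0.409). The adhesion receptor *Mcam* was called with the block only (adjusted p = 0.0711 and 0.039). Placental growth factor (*Pgf*), at 43 to 321 (median 162.5) and 315 to 1850 (median 762), was not called (2.22 ± 0.51, adjusted p = 0.0803).

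Among 49 cytokine, chemokine and receptor genes tested, *Csf3*, *Il4ra* and *Cxcr2* rose and *Tgfb2* fell, beside 0.362% and 0.128% of all genes. The median was 0.59, and 16 reached an unadjusted p under 0.05 upwards and 4 downwards, beside 5.94% and 6.00% of all genes. *Csf3*, encoding the granulocyte colony-stimulating factor G-CSF, was at 4 to 293 (median 58.5) contralaterally and at 188 to 2841 (median 1002.5) ipsilaterally (log2 fold change 4.43 ± 0.89, adjusted p = 0.0398). It was higher in 6 of 6 pairs, although contralateral replicate 4 (293) lay above ipsilateral replicate 5 (188). *Il4ra*, a chain of the receptors for interleukins 4 and 13, was at 487 to 1930 (median 1273.5) and at 2002 to 6244 (median 4763.5), without overlap (1.83 ± 0.34, adjusted p = 0.0281). *Tgfb2*, a ligand of the TGF-beta family, was at 991 to 1716 (median 1360) and at 311 to 864 (median 557.5), a log2 fold change of -1.26 ± 0.25 (adjusted p = 0.0398).

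*Cxcr2*, the receptor of neutrophils for CXC chemokines, was at 0 in all 6 contralateral libraries and at 16 to 280 (median 31.5) ipsilaterally, at least 29-fold higher when the contralateral mean is set to the floor of 3 reads per library, 2.8 normalized counts (adjusted p = 0.01). Without ipsilateral replicate 3, at 280, it was at least 15-fold higher. It is itself one of the neutrophil markers above, and it was at 16 and 19 in ipsilateral replicates 5 and 6. Called with the block only were 6 genes known from myeloid cells, namely *C5ar1*, *Chil3*, *Ccr1*, *Msr1*, *Lgals3* and *Lcn2*, the last of which reactive endothelium also expresses. *Lcn2* was at 1024 to 16239 contralaterally and 5221 to 48396 ipsilaterally (adjusted p = 0.272 without and 0.0279 with the block). Neutrophil markers were higher on the ipsilateral side in 6 of 6 pairs beside the other 5, and microglial markers in 3 of 6. *Msr1*, for instance, was at 415 to 3772 in ipsilateral replicates 1 to 4 and at 43 and 14 in replicates 5 and 6.

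Leukocyte adhesion genes (12 tested, median 0.66) held no call without the block. An unadjusted p under 0.05 was reached by 6 of them upwards and 0 downwards, beside 5.94% and 6.00% of all genes. With the block, *Mcam* above and *Ackr1* were called, beside 0.378% of all genes called higher. *Ackr1*, a chemokine-binding receptor of venules, was at 140 to 13555 contralaterally and 2652 to 29228 ipsilaterally (adjusted p = 0.358 without and 0.0369 with the block). Its levels differed between pools more than between hemispheres, and it was higher in 6 of 6 pairs. E-selectin (*Sele*) was at 20 to 570 (median 195.5) and 338 to 1186 (median 784.5, 2.30 ± 0.64, adjusted p = 0.14), *Icam1* at 902 to 6424 (median 4126.5) and 4702 to 7247 (median 6687, 1.09 ± 0.43, adjusted p = 0.319), and *Vcam1* at 3415 to 15292 (median 7852.5) and 5120 to 8767 (median 7749, adjusted p = 0.999). Of 35 interferon-stimulated genes tested, none was called and none had an unadjusted p under 0.05 (median -0.18).

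Called genes of glycolysis, protein folding and polyamine synthesis are given beside 0.362% of all genes called higher. Of 35 hypoxia and glycolysis genes tested (median 0.32), the glycolytic enzymes *Gapdh* and *Pgk1* rose. *Gapdh* was at 3132 to 6237 (median 4468) contralaterally and at 8605 to 12946 (median 11009) ipsilaterally, a log2 fold change of 1.29 ± 0.20 (adjusted p = 0.0117), and *Pgk1* was at 441 to 590 (median 490.5) and at 789 to 1354 (median 1018.5), a log2 fold change of 0.99 ± 0.20 (adjusted p = 0.0398). Both have many processed copies in the genome, so that reads shared with copies leave their levels uncertain. *Eno1* (0.83 ± 0.18, adjusted p = 0.0545) and *Pkm* (1.08 ± 0.25, adjusted p = 0.0853), which encode later steps, did not overlap between hemispheres but were not called. On that list 11 members reached an unadjusted p under 0.05 upwards and 5 downwards, beside 5.94% and 6.00% of all genes. Of the latter, *Egln1*, an oxygen sensor that marks HIF for degradation, was at 270 to 710 (median 393) and 214 to 268 (median 241, -0.88 ± 0.27, adjusted p = 0.183), and the mitophagy receptor gene *Bnip3l* was at 2420 to 3966 (median 2544.5) and 1548 to 2161 (median 1968, -0.54 ± 0.18, adjusted p = 0.203), both without overlap.

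Polyamine synthesis and nucleolar genes (20 tested, median 0.57) held 3 rising genes, and 8 members reached an unadjusted p under 0.05 upwards and 1 downwards, beside 5.94% and 6.00% of all genes. *Odc1*, the rate-limiting enzyme of polyamine synthesis, was at 335 to 679 (median 466.5) and at 917 to 3332 (median 1806, log2 fold change 1.88 ± 0.34, adjusted p = 0.0247). *Srm*, spermidine synthase, which uses the product of that enzyme, was at 286 to 614 (median 377.5) and at 713 to 1441 (median 992, 1.37 ± 0.24, adjusted p = 0.0235), and *Nop56*, a component of ribosomal RNA-modifying particles, rose by 1.16 ± 0.23 (adjusted p = 0.0398). Of 31 heat shock and chaperonin genes, *Tcp1*, a subunit of the chaperonin that folds actin and tubulin, rose by 0.98 ± 0.17 (adjusted p = 0.021, 0.0634 with the block). On that list 13 members reached an unadjusted p under 0.05 upwards and none downwards, beside 5.94% and 6.00% of all genes, and the median was 0.35. The 31 unfolded protein and Atf4 genes (median 0.54) held no call without the block, with 12 at an unadjusted p under 0.05 upwards and 2 downwards. Of 35 proteasome genes (median 0.25) none was called, with 7 upwards and none downwards.

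**Figure D4:**
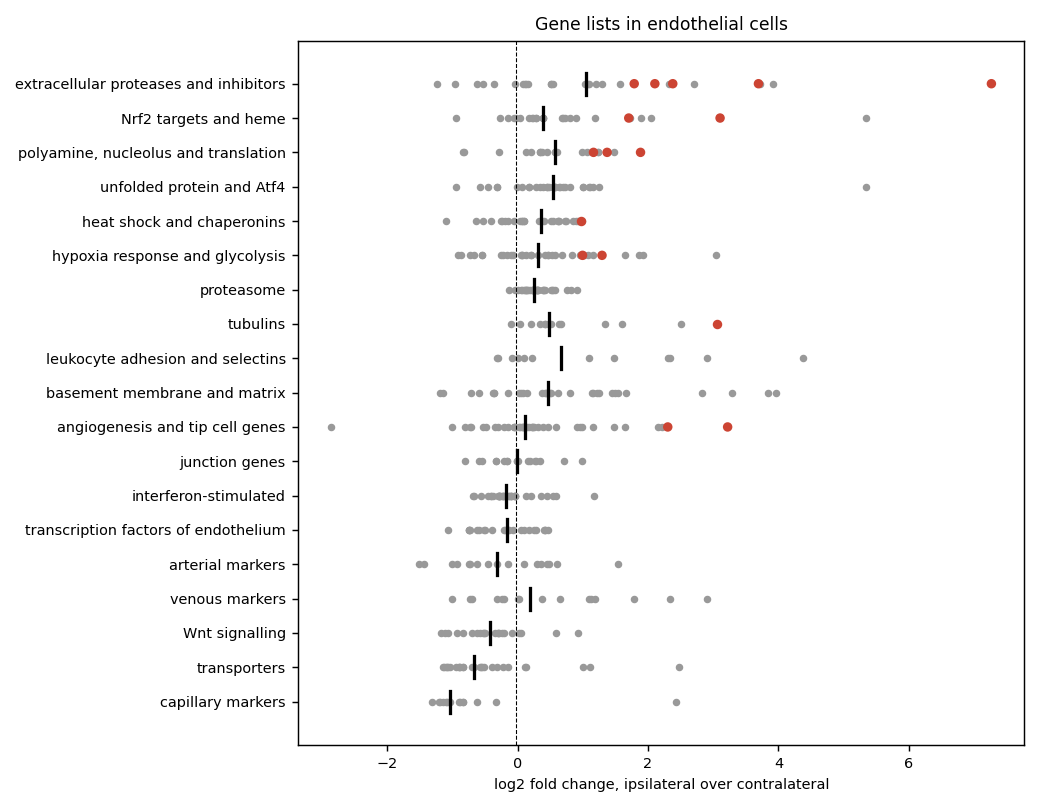
Log2 fold changes (ipsilateral over contralateral) of the members of 19 gene lists in endothelial cells, each point 1 gene tested, with called genes in red, the list's median as a black bar and the median of all genes tested (-0.03) as a dashed line. Medians run from -1.05 for capillary markers, where no member was called, to 1.05 for extracellular proteases and inhibitors, where 5 were.

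None of the 18 junction genes tested was called (median -0.01, 8 above and 10 below 0). An unadjusted p under 0.05 was reached by 1 upwards (*Nectin2*, 0.71) and 2 downwards, beside 5.94% and 6.00% of all genes. *Cldn5*, the main tight junction claudin of brain endothelium, was at 28965 to 57462 (median 40347.5) contralaterally and at 29180 to 43955 (median 34253.5) ipsilaterally, a log2 difference of -0.16 ± 0.24 (adjusted p = 0.85). The scaffold gene *Tjp1* was at 2107 to 4734 (median 3430.5) and at 1088 to 3628 (median 1917), a difference of -0.81 ± 0.31 (adjusted p = 0.311), and *Ocln* at 3432 to 11298 (median 7994) and 3367 to 6165 (median 4876), a difference of -0.55 ± 0.30 (adjusted p = 0.507, 0.0184 without the 3 libraries that stood apart). In the caveolar coat, *Cavin2* (chr1:51289126-51302960) fell from 6568 to 11278 (median 9814) to 2768 to 5780 (median 4334.5), a log2 fold change of -1.14 ± 0.22 (adjusted p = 0.037, 0.0612 with the block). It was the only one of 10 vesicle and permeability genes called (median -0.06), beside 0.128% of all genes called lower.

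Transporter and capillary genes showed lower medians without a call. The 27 transporters tested had a median of -0.67, with 13 at an unadjusted p under 0.05 downwards and 1 upwards, and the 15 capillary markers a median of -1.05, with 11 downwards and 1 upwards, beside 6.00% downwards and 5.94% upwards of all genes. The lists overlap: *Slc16a1*, *Slc7a1*, *Slc22a8*, *Slco1c1*, *Tfrc* and *Mfsd2a* were among the downward members of both. No member of either list was called with or without the block. Both medians were below 0 in replicates 1 to 4 (-0.64 and -0.99) and in replicates 5 and 6 (-0.68 and -0.90). Without the 3 libraries that stood apart, 8 of the transporters and 6 of the capillary markers were called lower and none higher, beside 1.77% of all genes. *Slc2a1*, the glucose transporter GLUT1, was at 55830 to 146673 (median 133586.5) contralaterally and at 53862 to 99906 (median 81843.5) ipsilaterally (-0.54 ± 0.32, adjusted p = 0.542). Its contralateral values were at least 110206 except in replicate 2 (55830), one of the libraries that stood apart.

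*Abcb1a*, the drug efflux pump P-glycoprotein, was at 6954 to 11878 (median 9550.5) and at 2226 to 7568 (median 4672.5), lower in 6 of 6 pairs (-1.06 ± 0.26, adjusted p = 0.104, 0.0676 with the block). Its near-identical paralog *Abcb1b* went the other way, from 4 to 227 (median 85.5) to 232 to 372 (median 304.5) without overlap (2.48 ± 0.73, adjusted p = 0.162), and neither was called. The organic anion carrier *Slco1a4* was at 18730 to 81378 (median 49204.5) and 11793 to 46292 (median 20354, adjusted p = 0.264), and carbonic anhydrase *Car4* at 8518 to 15437 (median 12554.5) and 2732 to 10932 (median 5835, adjusted p = 0.155). *Rgcc*, a capillary marker, was at 4253 to 15256 (median 5516.5) and at 1707 to 4050 (median 3254) without overlap (-1.10 ± 0.30, adjusted p = 0.138).

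The 22 Wnt signalling genes tested had a median of -0.43, with 7 at an unadjusted p under 0.05 downwards (6.00% of all genes), none upwards and no call. Without the 3 libraries that stood apart, 4 of them were called lower, beside 1.77% of all genes. Of the 25 endothelial transcription factors (median -0.17), none was called, 6 reached an unadjusted p under 0.05 downwards (6.00% of all genes) and none upwards. Without the 3 libraries that stood apart, 3 of them were called lower. *Sox17*, a factor of arterial endothelium, was at 4806 to 8477 (median 6916) and 3343 to 5548 (median 4310.5, adjusted p = 0.185). Among called genes, *Dixdc1*, whose product binds the Wnt mediator Dishevelled, fell from 640 to 986 (median 936) to 152 to 543 (median 258.5), a log2 fold change of -1.68 ± 0.28 (adjusted p = 0.0187). The Wnt ligand *Wnt5a* was called lower with the block only, from 579 to 1654 (median 1019) to 183 to 510 (median 390) without overlap (adjusted p = 0.0599 without and 0.0342 with the block).

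The other falling genes were on none of the lists. *Ptn*, the secreted growth factor pleiotrophin, fell from 3367 to 9805 (median 4287) to 637 to 2561 (median 1261.5), a log2 fold change of -1.93 ± 0.33 (adjusted p = 0.021). *Cdk19*, a Mediator kinase, fell by 1.37 on the log2 scale, *Rasgrp2*, an activator of Rap, by 1.69, and *Pik3ip1*, an inhibitor of phosphoinositide 3-kinase, from a median of 3199.5 to 1461 normalized counts. *Gulp1*, an engulfment adaptor, fell from 477 to 840 (median 760) to 46 to 306 (median 193.5), by 2.02 on the log2 scale. *Fam107a* (by 1.10), *Pcmtd2* (by 1.22), the sulfotransferase *Sult1a1* (from a median of 3555 to 1327.5 normalized counts), the serine protease *Prss23* (by 1.03), *Rad54b* (by 1.37), the silencing factor *Tnrc6c* (by 1.14), the phosphodiesterase *Smpdl3a* (by 0.95) and the ubiquitin ligase *Rnf144b* (by 1.29) made up the rest. *Prss23* alone of the 17 overlapped between hemispheres.

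Several rising genes were on none of the lists. *Litaf*, an endosomal membrane protein induced by inflammatory stimuli, was at 1586 to 4878 (median 3628) and at 8150 to 11277 (median 10750), a log2 fold change of 1.64 ± 0.25 (adjusted p = 0.01). *Cd200*, a surface ligand that inhibits myeloid cells, was at 6526 to 8384 (median 6611) and at 11276 to 14523 (median 13699), a change of 0.92 ± 0.16 (adjusted p = 0.0235, 0.0628 with the block). *Plin2*, the coat of lipid droplets, was at 870 to 1765 (median 1454.5) and at 2615 to 6523 (median 4028.5, 1.59 ± 0.24, adjusted p = 0.01). *Upp1*, uridine phosphorylase, was at 65 to 722 (median 359.5) and at 1217 to 2855 (median 2280.5, 2.82 ± 0.49, adjusted p = 0.0211).

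Of 46 actin cytoskeleton genes tested (median 0.36), *Tpm3* and *Rnd1* rose and none fell, beside 0.362% and 0.128% of all genes. An unadjusted p under 0.05 was reached by 11 upwards and 4 downwards, beside 5.94% and 6.00% of all genes. Among the latter, *Tpm1* was at 2785 to 5224 (median 3093) and 1971 to 2682 (median 2403.5, adjusted p = 0.287), and *Tpm2*, which smooth muscle also expresses, at 74 to 1015 (median 276.5) and 0 to 253 (median 53, adjusted p = 0.323), beside the lower pericyte and smooth muscle markers, whose part was not tested. The actin-binding *Tpm3* rose by 0.85 ± 0.17 and *Rnd1*, a small GTPase that loosens actin fibers, by 1.64 ± 0.33 (limma adjusted p = 0.0398 for each). Beside them and *Tubb6* above, 2 called genes on none of the lists were the microtubule-associated *Map1b* (1.26 ± 0.21, adjusted p = 0.0187) and the actin-binding *Pdlim1* (2.79 ± 0.54, adjusted p = 0.0378). *Fosl1*, an AP-1 subunit and the only one of 33 immediate early and AP-1 genes called, was at 83 to 317 (median 169) and at 489 to 961 (median 733.5), a log2 fold change of 2.01 ± 0.34 (adjusted p = 0.0187). That list's median was -0.08, and 0.362% of all genes were called higher.

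The remaining rising genes were *AI506816* (log2 fold change 2.14), the thioesterase *Acot7* (1.96), the glycoprotein hormone *Stc1* (1.89), the nectin-like receptor *Pvr* (1.32), the transfer RNA synthetase *Yars* (1.00), *Nus1* of dolichol synthesis (1.19), the chromatin protein *Hmga1* (1.89), *Slc35g2* (1.28), the phospholipid enzyme *Pisd* (1.02), the kinase *Nek6* (2.12, higher in 5 of 6 pairs) and the RNA helicase *Ddx39* (1.03). *Hmga1*, *Ddx39* and *Tpm3* have near-identical copies that leave their levels uncertain as well. No contralateral value above 10 was seen for 6 rising genes: *Sh2d5*, *Car13*, *Cxcr2*, the serine protease *Klk6* (0 to 7 against 24 to 94), the neuropeptide *Npy* (0 to 5 against 15 to 76) and *Gm8818* (0 to 1 against 15 to 95), a processed pseudogene whose reads may belong to its parent gene. These 6 met the rule of more than 10 only through the ipsilateral hemisphere. *Mctp2* (0 to 32 against 60 to 143) and *AA467197* (0 to 82 against 236 to 335) were low as well, with 82 of *AA467197* in contralateral replicate 2. *Klk6* and *Npy* are known from other brain cells. Oligodendrocyte lineage and astrocyte markers had higher medians in the ipsilateral libraries (7265.5 against 3146, and 5693.5 against 4203), and neuronal markers a lower one (726.5 against 1514). The part of these cells in both rises was not tested.

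All 65 called genes had the same sign in replicates 1 to 4 and in replicates 5 and 6. These are the libraries that made the calls, so the shared sign is a description and not an independent check. Of the 48 rising genes, 24 were changed more in replicates 1 to 4, and of the 17 falling genes 13 were. *Stc1* (1.30 against 3.05) and *Upp1* (2.34 against 3.78) were changed more in replicates 5 and 6, and *Adam8* (8.34 against 5.13) and *Car13* (6.60 against 3.71) in replicates 1 to 4. Among the 27 genes called with the block only, *Spp1* (5.06 against 1.77) and *Lgals3* (4.06 against 1.74) differed in size between both sets. These differences were not tested. With the microglial level as a covariate beside the block, 27 of the 65 genes were called, and with the covariate alone all 65 were.

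**Figure D5:**
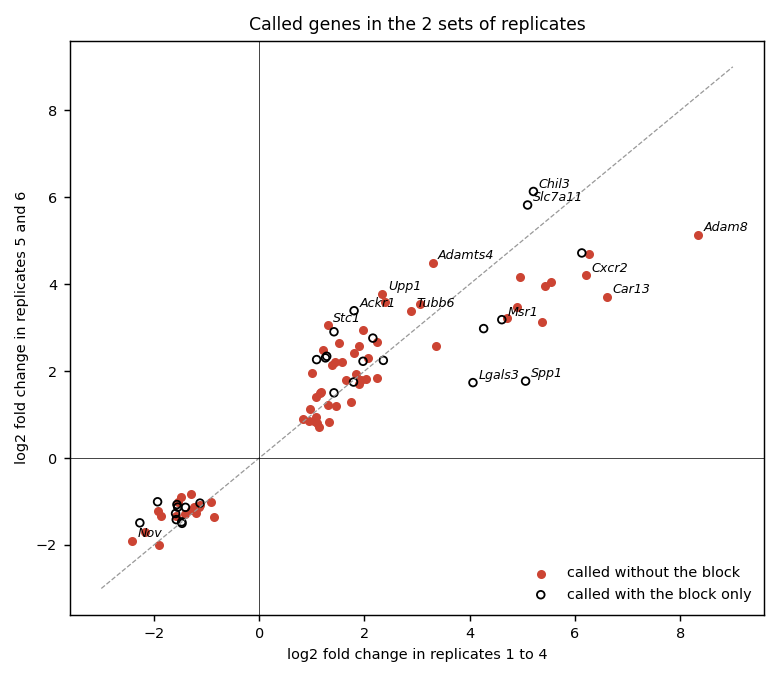
Log2 fold changes of called genes in replicates 1 to 4 (horizontal) and in replicates 5 and 6 (vertical), with the 65 genes called without the block in red and the 27 called with the block only as open circles, and equal change as a dashed line. Every point has the same sign on both axes, which use the libraries that made the calls. Spp1 (5.06 against 1.77) and Adam8 (8.34 against 5.13) lie far below the line.

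The remaining genes called with the block only were *Mt2*, *Cd2ap*, *Sema3c*, *Glipr2*, *Tmem173*, *Ddc*, *Kazald1*, *Sgpp2*, *Myl9*, *Net1*, *Nebl*, *Igfbp4* and *Tbc1d4*. *Mt2*, a metallothionein that binds zinc, was at 163 to 2350 (median 437) and at 775 to 3519 (median 2625), with contralateral replicate 2 at 2350 (adjusted p = 0.128 without and 0.0342 with the block). *Sema3c*, a guidance molecule, was at 2537 to 11295 (median 4399) and at 670 to 4928 (median 1454), lower in 6 of 6 pairs. *Myl9*, a myosin light chain of smooth muscle, was lower as well, from 242 to 3753 (median 711.5) to 95 to 423 (median 257), beside the lower pericyte and smooth muscle markers, whose part was not tested.

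Whether endothelial cells respond differently from astrocytes, the other cell type whose labels agree for both hemispheres, was tested as the difference of both log2 fold changes in 24 libraries. Of 15018 genes, 7 (0.0466%) were called, 3 with a larger change in endothelial cells, and 841 had an unadjusted p under 0.05. *Bcr* and *Mmp14*, which rose in endothelial cells, had log2 differences of -0.13 and -0.39 in astrocytes, so that the fold changes differed by 1.82 ± 0.30 (adjusted p = 0.0122) and 2.50 ± 0.45 (adjusted p = 0.0327). *Mmp14* was at 887 to 3068 (median 2215) in ipsilateral astrocytes and at 320 to 1003 (median 404) in ipsilateral endothelial cells, ranges that overlap. *Car13* differed by 5.51 ± 0.92 (adjusted p = 0.0122), at 12 to 83 in ipsilateral astrocytes and 76 to 452 in ipsilateral endothelial cells.

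*Slc7a1*, the carrier of arginine and other cationic amino acids, differed the most by p (-2.70 ± 0.33, adjusted p = 0.000291). In endothelial cells it was at 2753 to 6351 (median 3973) and 1087 to 2967 (median 2445.5), in astrocytes at 105 to 180 (median 128.5) and 392 to 581 (median 477), with medians that moved in opposite directions. *Rhoj*, an endothelial small GTPase, was at 2611 to 3973 and 3379 to 4934 in endothelial cells and at 402 to 864 and 1482 to 4035 in astrocytes, a difference of -1.65 ± 0.31 (adjusted p = 0.0476). *Fga* and *Gldn* were at 0 in 6 of 6 contralateral endothelial libraries and at most 14 and 0 in ipsilateral ones, against 38 to 280 and 73 to 279 in ipsilateral astrocytes (adjusted p = 0.00136 and 0.0486). They entered the test through the astrocytes, so that their difference describes astrocytes and not an endothelial response. All 7 were also among the 34 called with the replicate block, and *Slc7a1* and *Fga* alone were called whichever replicate was left out.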

How the data were processed

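RNA of flow-sorted endothelial cells was amplified by the authors with a SMART-Seq HT kit from about 250 pg of total RNA and sequenced. The kit does not mark strand, so reads of genes overlapping on opposite strands cannot be told apart. The authors trimmed reads with Trimmomatic 0.38, aligned them to GRCm38 with STAR 2.6.1d, counted them on genes with featureCounts 1.6.3 and normalized counts with DESeq2 1.18.1. The deposited values hold the result as whole numbers, which are treated here as a score and never as raw counts. The 12 columns of ipsilateral pericytes and microglia, whose titles and column names name opposite cell types, were not used.

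Genes with a mean of at least 10 were tested with limma 3.58.1 in R 4.3.3 (lmFit, then eBayes using its trend option) after log2 transformation with a pseudocount of 1, two-sided, with Benjamini-Hochberg adjustment. The log2(value + 1) scale understates the change of low genes. Summaries used pandas 2.3.3 and numpy 2.4.6 under Python 3.11.15, plots matplotlib 3.10.9, and the test was checked on simulated data. Hemispheres of the same replicate number are those of the same mice. Their deviations from the group means correlated across genes at 0.0105 to 0.55 (mean 0.227), above 0.1 in 3 of 6 pairs, against a mean of -0.0387 for different numbers. For the closest replicates, the median squared difference across genes was 8.89 times that due to counting error, so none was a repeat deposit.

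The genes compared and the 44 gene lists were chosen with earlier results of these data known. Named are genes called in the fits with and without the block and in each fit leaving out a replicate, called members of lists (or, with fewer than 2 calls, abundant members), genes with the smallest p called with 1 direction in 6 of 6 pairs, and called differences from astrocytes. *Tuba1c*, *Tjp1*, *Ocln*, *Nqo1*, *Osgin1*, *Eno1*, *Pkm*, *Pgf*, *Sele*, *Icam1*, *Abcb1a*, *Abcb1b*, *Slco1a4*, *Car4*, *Rgcc*, *Sox17*, *Col4a2*, *Angpt1*, *Tek*, *Egln1*, *Bnip3l*, *Tpm1* and *Tpm2*, and called genes outside the rule, were added after their values were seen. Leaving out 2 or 3 libraries that stood apart, and the block with the microglial covariate, were alternatives chosen after seeing the data. Medians of lists did not move when genes at 0 in all contralateral libraries were set to their bound.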

Additional observations from a re-analysis of the deposited data

Results flagged for a closer look

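Single libraries lay far from the other 5 of their hemisphere in 30 of 254 groups of 6 (127 genes) by Dixon's criterion for 6 values. For normally distributed values that criterion is met in about 1 in 20 groups. It was applied here to untransformed normalized counts, so the 30 cannot be set against that share. Contralateral replicate 2 accounted for 13 of them. It was the highest of its hemisphere for the falling genes *Ptn* (9805), *Rasgrp2* (2916) and *Sult1a1* (7407), for the capillary marker *Rgcc* (15256), for *Ddx39* (1597), *Tpm1* (5224), *AA467197* (82), *Mt2* (2350) and *Timp1* (612), and for *Ccr1* (100), *Cd44* (96) and *Lgals3* (249). For *Pecam1* it was at 5823.

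Ipsilateral replicate 3 was the highest for genes of matrix and myeloid cells, *Adam8* (4815), *Cd44* (1042), *Chil3* (3891), *Mmp14* (1003) and *Msr1* (3772), and stood apart for *Rnf144b* (286). Ipsilateral replicate 1 stood apart for *Car13* (452), *Nop56* (2025) and *Smpdl3a* (3752), contralateral replicate 4 for *Csf3* (293) and *Slc7a11* (136), and contralateral replicates 1, 3 and 6 for *Adam8* (31), *Mmp14* (232) and *Nus1* (677). In ipsilateral replicate 5 *Osgin1* was at 1521, and in ipsilateral replicate 6 *Pgf* was at 1850 and *Tubb6* at 14773.

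The log2 fold change differed between endothelial cells and astrocytes (limma interaction, endothelial minus astrocyte) by 2.50 for *Mmp14*, 1.82 for *Bcr* and 5.51 for *Car13*, and by -2.70 for *Slc7a1*, -6.32 for *Fga*, -5.29 for *Gldn* and -1.65 for *Rhoj*.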

How the results depend on the processing

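None of the 92 genes called with or without the block changed direction under the alternatives tried, which reuse the libraries that made the calls. The number of calls, in contrast, depended strongly on the libraries. The 65 calls became 10 to 84 when 1 replicate was left out, 11 in replicates 1 to 4 alone (5 of them among the 65) and 452 in replicates 5 and 6 alone (47 among the 65). They became 36 with no filter on low values, where more genes are tested, 1200 with array weights, 303 in a joint fit of 36 libraries and 199 with the microglial level as a covariate. Without the 3 libraries that stood apart they became 516, and 395 without 2 of them, alternatives chosen after seeing the data. The pseudocount, a mean of at least 50 and rescaling within endothelial cells gave 67 to 75. With the replicate block, which pairs hemispheres of the same pool, 73 genes were called (2 to 296 without 1 replicate), and 34 in place of 7 for the difference from astrocytes. That difference gave 4 calls with a pseudocount of 0.1, 13 with no filter and 2 to 5 without 1 replicate. The cause of these differences was not tested. Uncalled genes near 0 changed sign: *Cldn5* to 0.11 in replicates 5 and 6 alone, *Cdh5* to -0.027 and *Pecam1* to -0.034 in replicates 1 to 4 alone, *Pecam1* to -0.13 without replicate 2 (up to 0.472 without replicate 1), and *Vcam1* to 0.02, 0.06 and 0.18 without replicate 2, 3 or 4, 0.62 in replicates 5 and 6 alone, 0.021 rescaled, 0.37 with array weights, 0.26 without the 3 libraries and 0.056 with the microglial covariate and block. Depth limits genes near the floor of 2.0 to 3.8 normalized counts.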
